A study of Mus musculus with 8 samples.

Results

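The proteasome genes described here are the 47 genes, of 35753 named on the array, that have a probe whose gene name is Psm, a letter from a to g and a number. They are measured by 58 of the array's 55681 probes. A gene such as Psmc3ip, whose name runs on after the number, was left out. Of the 47 genes 45 were tested and are set against each other by role. Psme2, the beta subunit of the interferon-inducible activator, has no probe of that name.

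The samples were hippocampi of C57BL/6 mice, naive, untreated and at least 3 months old, with 1 array per mouse. The 4 conditional knockout (CKO) mice carried loxP sites on both copies of Ctcf, whose product binds insulator sites and anchors loops of chromatin, together with Camk2a-Cre and the RiboTag allele. The 4 WT mice are labelled wild type for Ctcf and carried Camk2a-Cre and RiboTag as well, although the series' design text calls the controls loxP homozygotes. Each group held 3 males and 1 female. In RiboTag mice, Cre turns on a form of the ribosomal protein Rpl22 with a haemagglutinin tag, through which the ribosomes of the Cre-expressing cells and the RNA on them are precipitated. Camk2a-Cre acts in forebrain excitatory neurons, so the measured RNA is meant to be that of those neurons. It is ribosome-bound RNA and not protein, and fewer cells of a type and less RNA per cell cannot be told apart in it.

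The proteasome is the protease that degrades proteins marked with ubiquitin. Its barrel-shaped core has outer alpha rings and inner beta rings, and the beta subunits encoded by Psmb5, Psmb6 and Psmb7 cut proteins. The regulatory particle on the end of the core holds ATPases (Psmc genes), which unfold the substrate, and non-ATPase subunits (Psmd genes), which bind and strip ubiquitin. Interferon gamma induces Psmb8, Psmb9 and Psmb10, which take the places of Psmb5, Psmb6 and Psmb7 to form the immunoproteasome, and the activator subunits Psme1 and Psme2. The immunoproteasome is known for making peptides for antigen presentation and is abundant in immune cells, microglia included, while neurons hold mostly the constitutive form.

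Probes of immunoproteasome subunits and of their constitutive counterparts are shown because the comparison between them turns on telling close relatives apart. Those of Psmb6 and Psme1 and the second Psmb5 probe are not printed. All sequences are the array's own 60-base probes, written 5′ to 3′, with places as the array gives them in mm9. In the first pair the capitals mark the bases that are identical when the Psmb8 and Psmb5 probes are laid over each other without gaps. The Psmb8 probe lies on the plus strand at chr17:34337771-34337830 and the Psmb5 probe on the minus strand at chr14:55233161-55233220.
Psmb8: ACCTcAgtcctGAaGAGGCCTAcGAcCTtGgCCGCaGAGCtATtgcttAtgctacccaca
Psmb5: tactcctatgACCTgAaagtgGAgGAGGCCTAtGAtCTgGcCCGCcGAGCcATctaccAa
In this overlay 31 of 50 bases are identical. The second Psmb5 probe has 21 of 57 identical bases in its best gapless overlay with the Psmb8 probe. The best gapless overlay of the Psmb9 probe on the Psmb6 probe has 21 of 54 identical bases, and that of Psmb10 on Psmb7 has 23 of 56. The Psmb9 probe lies at chr17:34319174-34319233 and the Psmb10 probe at chr8:108459677-108459736, both on the minus strand. The Psmb7 probe is listed without a place.
Psmb9: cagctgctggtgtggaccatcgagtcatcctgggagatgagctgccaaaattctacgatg
Psmb10: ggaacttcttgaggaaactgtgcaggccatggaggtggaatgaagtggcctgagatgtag
Psmb7: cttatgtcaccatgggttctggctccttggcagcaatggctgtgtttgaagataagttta
Cross-hybridisation between a pair was not tested.

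Ctcf itself, read first as a check of the labels, was at -2.56, -2.42, -1.96 and -2.02 in CKO mice 1 to 4, against -1.11, -1.75, -1.47 and -1.15 in WT mice 1 to 4. These levels, like all below, are log2 signal relative to the array's 75th percentile. The groups did not overlap, and Ctcf was lower in CKO by 0.87 (limma difference -0.87, SE 0.22; adjusted p = 0.724 over all genes; exact two-sided permutation p = 0.0286, the smallest that 4 against 4 allows). Between 72.2% and 81.5% of probes were well above background per array, and no spot was saturated. The arrays lay on 3 slides: slide 1 held WT 1, slide 2 held CKO 1, CKO 2, WT 2 and WT 3, and slide 3 held CKO 3, CKO 4 and WT 4. The first principal component held 54.4% of the variance and set the slide 3 arrays (29.6 to 127.6) apart from the rest (-67.4 to -14.6).

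No proteasome gene passed the test of CKO against WT at an adjusted p of 0.05 over the 29528 genes tested, and the smallest adjusted p among the members was 0.724. In that comparison 0.00339% of all genes passed, which is 1 gene. Without adjustment, 5 of 45 members were at a limma p under 0.05 and higher in CKO, against 2.5% of all genes, and 0 were lower, against 2.81%. In either direction the share over all genes was 5.31%. The 5 were Psmb8, Psmb10, Psmb6, Psmc3 and Psmd3. Psmb8 is not like the others, since it passed the filter on dim probes with 3 CKO arrays and 1 WT array. With only probes well above background on all 8 arrays, 44 members were tested. Of these 3 were higher at that p (Psmb10, Psmb6 and Psmc3), against 2.85% of all genes. The 4 CKO and 4 WT arrays did not overlap for 5 members that were higher in CKO (Psmb4, Psmb10, Psmc3, Psmc5 and Psme1), against 1.96% of all genes, and for 1 that was lower (Psmd9), against 1.35%. In either direction this held for 3.32% of all genes. A difference above 0 was measured for 37 of the 45, against 41.5% of all genes. The median difference of the members was 0.17, and that of all genes was -0.08.

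**Figure D1:**
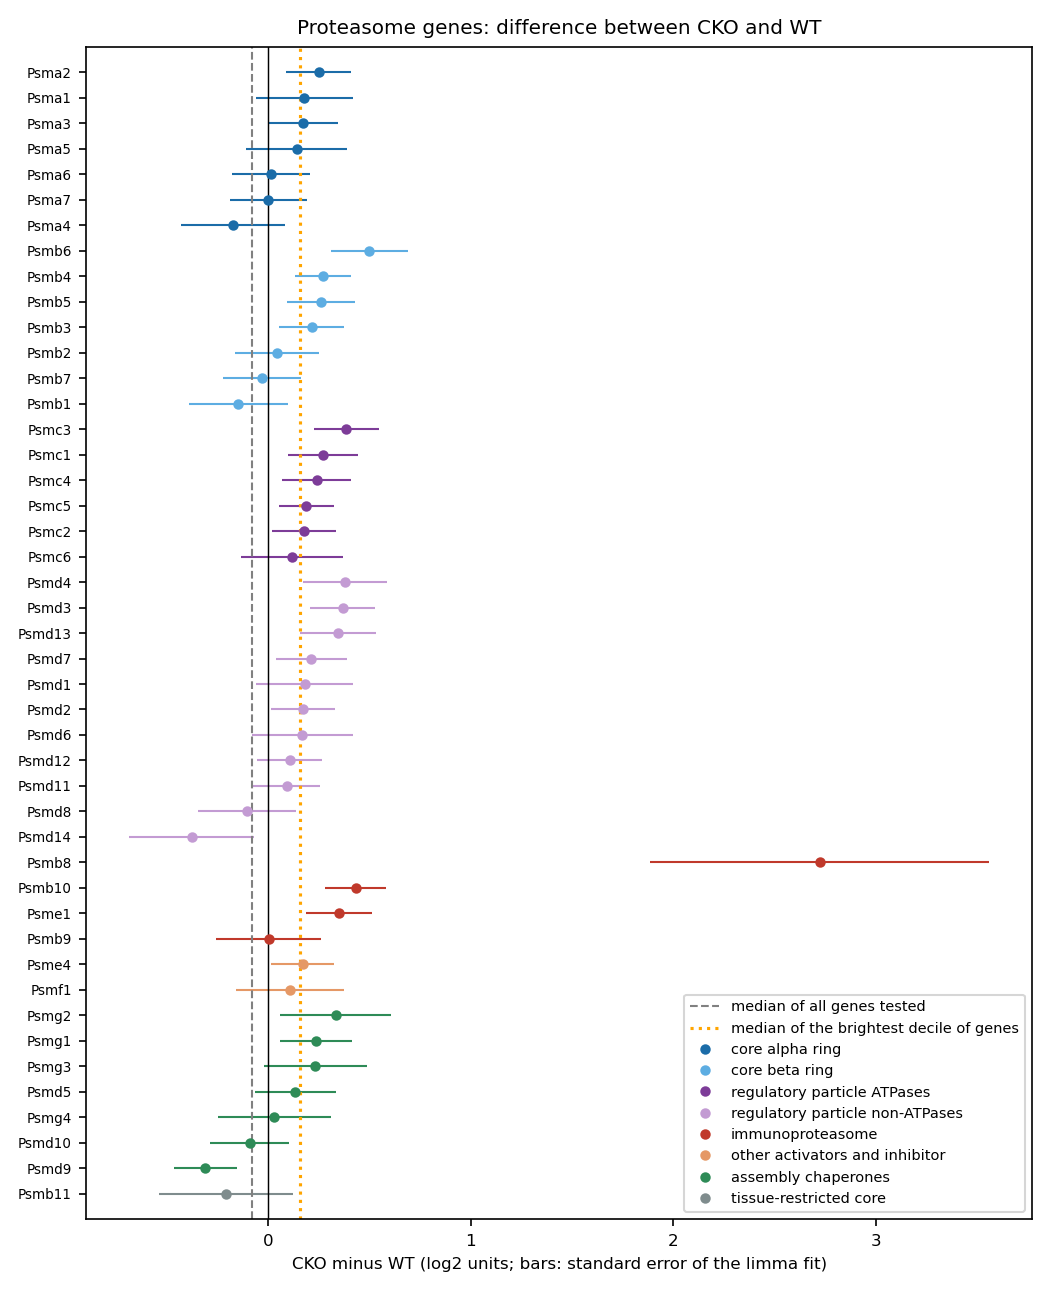
Difference between CKO and WT (log2 units, horizontal axis) of each of the 45 tested proteasome genes, coloured by role, with the standard error of the fit as bars, the median of all genes (dashed) and that of the brightest decile of genes (dotted). Of the 45 points 37 lie above 0, and Psmb8, at 2.72, is far from the others and has the widest bar.

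The immunoproteasome subunits differed among themselves: Psmb8 and Psmb10 were at an unadjusted p under 0.05 and higher in CKO, Psme1 had groups that did not overlap, and Psmb9 overlapped throughout. Psmb8, the inducible relative of the chymotrypsin-like Psmb5, was at -3.35, -4.14, -5.24 and -2.56 in CKO 1 to 4, against -4.17, -7.67, -6.58 and -7.75 in WT 1 to 4. It was well above background in 3 CKO mice (not CKO 3) and in 1 WT mouse (WT 1), and WT 1 stood just under CKO 2 and above CKO 3, so the groups overlapped. The difference was 2.72 (SE 0.84; adjusted p = 0.724). Psmb8 stood among the dimmest decile of genes and passed the filter of 4 arrays with exactly 4, so the size of its difference rests on signals that were not well above background. With normexp background correction and quantile normalization, which compresses dim signals, it was 0.78.

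Psmb10, the inducible relative of the trypsin-like Psmb7, was bright on every array. It was at 3.17, 3.09, 3.32 and 3.22 in CKO 1 to 4, against 2.65, 2.70, 2.74 and 2.99 in WT 1 to 4. Every CKO mouse stood above every WT mouse, with 0.10 between the groups, and WT 4 was the nearest WT mouse. Psmb10 averaged 3.20 ± 0.10 in CKO and 2.77 ± 0.15 in WT (SD, n = 4 each), which is a 1.35-fold difference. On the log2 scale this was 0.43 (SE 0.15; adjusted p = 0.724). It was 0.41 within slide 2 and 0.28 within slide 3, and it was above 0 under each of the 22 alternative settings, from 0.26 to 0.58.

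Psme1, the alpha subunit of the 11S activator, was at 1.12, 1.14, 1.32 and 1.19 in CKO 1 to 4, against 0.59, 0.77, 0.88 and 1.12 in WT 1 to 4. The groups did not overlap, but only 0.004 separated CKO 1 from WT 4. The difference was 0.35 (SE 0.16; adjusted p = 0.724), and within slide 3 it was 0.13. Psme1 has 10 spots on each array, whose SD within an array was 0.04 to 0.13, less than the spread of 0.22 between WT mice.

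Psmb9, the inducible relative of the caspase-like Psmb6, was at 0.26, 0.50, -0.02 and 0.24 in CKO 1 to 4, against 0.56, 0.40, 0.51 and -0.51 in WT 1 to 4. WT 4 stood far below the other WT mice. The difference was 0.004 (SE 0.26; adjusted p = 0.996). Without WT 4 it was -0.25, and within slide 3, where WT 4 is the only WT mouse, it was 0.62.

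Psme2 itself could not be read alone. Of 3 probes named Psme2b, after a copy of the gene on chromosome 11, 2 also list Psme2 transcripts. The first of these was at 1.96, 2.06, 2.62 and 2.22 in CKO 1 to 4, against 1.84, 1.54, 1.61 and 2.26 in WT 1 to 4, a difference of 0.40 with overlapping groups. The second differed by 0.03, and the third, which lists Psme2b alone, by -0.44. A further probe whose description names Psmb9, but whose gene name is a transcript ID, was not well above background on any array.

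**Figure D2:**
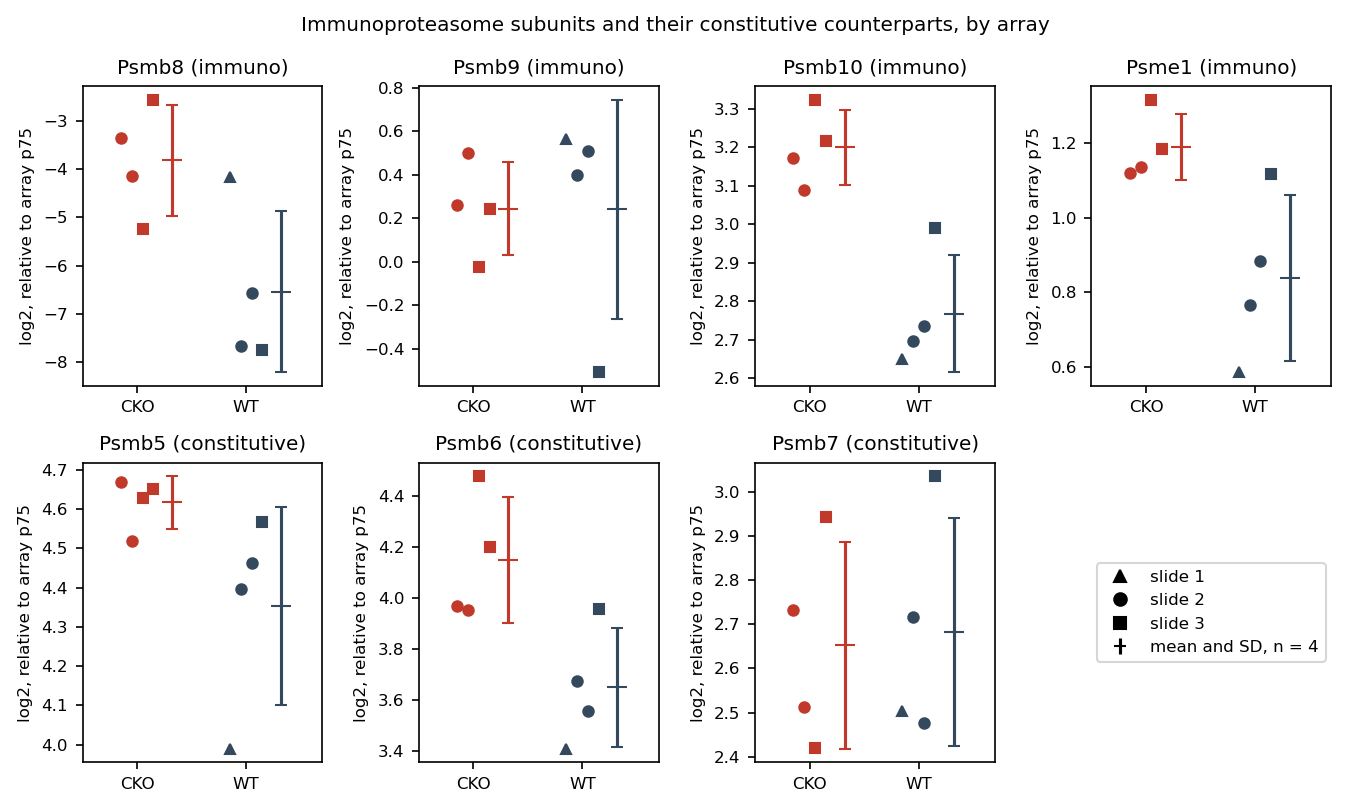
Log2 level relative to the array's 75th percentile (vertical axis, a different range in each panel) of 4 immunoproteasome subunits and 3 constitutive counterparts, with 1 point per array, its slide as the marker, and mean and SD beside each group. For Psmb10 and Psme1 every CKO point lies above every WT point, while the groups overlap for Psmb8, Psmb9 and the counterparts.

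The constitutive counterparts gave a mixed picture. Psmb6 was at 3.97, 3.95, 4.48 and 4.20 in CKO 1 to 4, against 3.41, 3.68, 3.56 and 3.96 in WT 1 to 4. Only WT 4 reached the CKO range. The difference was 0.50 (SE 0.19; adjusted p = 0.724), 0.34 within slide 2 and 0.38 within slide 3.

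Psmb5 was at 4.67, 4.52, 4.63 and 4.65 in CKO 1 to 4, against 3.99, 4.40, 4.46 and 4.57 in WT 1 to 4, a difference of 0.26 (SE 0.17). Its second probe differed by 0.35. Psmb7 was at 2.73, 2.51, 2.42 and 2.94 in CKO 1 to 4, against 2.50, 2.72, 2.48 and 3.03 in WT 1 to 4, and the groups overlapped throughout (difference -0.03, SE 0.19). Of the subunits that cut proteins, then, Psmb6 had the largest constitutive difference and Psmb7 none beyond its error.

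Each inducible subunit was also set against the subunit it replaces on the same array, as the log2 signal of the first minus that of the second. How that difference varies between arrays can be compared, but its absolute size cannot, since the probes differ. Psmb10 minus Psmb7 was 0.44, 0.57, 0.90 and 0.27 in CKO 1 to 4, against 0.14, -0.02, 0.26 and -0.05 in WT 1 to 4. The CKO mice all stood above the WT mice, and the group means differed by 0.46. Psmb8 minus Psmb5 was higher in CKO by 2.46 with overlapping groups, WT 1 standing among the CKO mice. Psmb9 minus Psmb6 was lower in CKO by 0.50, also with overlap, and was 0.24 higher in CKO within slide 3. No p is given for these pairs, which were chosen with results for Psmb8 and Psmb10 known.

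The core beta ring as a whole had 7 constitutive genes, of which 5 were above 0, with a median difference of 0.21 and a range of -0.15 (Psmb1) to 0.50 (Psmb6). Psmb4, a structural beta subunit, had narrow groups that did not overlap. It was at 3.96, 4.01, 4.00 and 4.03 in CKO 1 to 4, against 3.57, 3.75, 3.77 and 3.80 in WT 1 to 4, with 0.15 between them, the widest gap of the 6 members whose groups did not overlap. The difference was 0.27 (SE 0.14; adjusted p = 0.724). Psmb3 differed by 0.21 and Psmb2 by 0.05.

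Psmb1 was at 2.01, 1.60, 1.68 and 2.45 in CKO 1 to 4, against 2.07, 1.96, 1.77 and 2.52 in WT 1 to 4, and its difference of -0.15 had an SE of 0.24. The thymus-specific beta subunit Psmb11 was dim but well above background on all 8 arrays, with values from -4.44 to -2.88 in CKO and from -4.04 to -3.22 in WT and a difference of -0.21 (SE 0.33).

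The alpha ring, which gates the core, had 6 of 7 genes above 0 and a median of 0.14. No alpha gene was at a limma p under 0.05, and for none did the groups separate. Psma2 had the largest difference, 0.25 (SE 0.16), and Psma6 and Psma7 were close to 0 at 0.01 and 0.001. Psma4 was at 1.46, 0.65, 0.78 and 1.60 in CKO 1 to 4, against 1.35, 1.32, 0.94 and 1.57 in WT 1 to 4. Its difference was -0.17 (SE 0.26), and its other probe gave -0.07. Both Psma4 probes and the Psma5 probe are placed by the array on another chromosome than the gene. Whether they read copies of the genes elsewhere was not tested. The testis-specific alpha subunit Psma8 was not well above background on any array.

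All 6 ATPases of the regulatory particle were above 0, from 0.12 (Psmc6) to 0.39 (Psmc3), with a median of 0.21. Psmc3 was at 4.30, 4.63, 4.62 and 4.25 in CKO 1 to 4, against 3.89, 4.13, 4.17 and 4.07 in WT 1 to 4, and the groups did not overlap (difference 0.39, SE 0.16; adjusted p = 0.724). It was 0.32 within slide 2 and 0.36 within slide 3. The second Psmc3 probe differed by 0.10, with overlapping groups.

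Psmc5 was at 3.04, 3.08, 3.11 and 3.12 in CKO 1 to 4, against 2.94, 2.89, 2.77 and 3.00 in WT 1 to 4. The groups were 0.04 apart (difference 0.19, SE 0.14). The remaining ATPases differed by 0.27 (Psmc1), 0.24 (Psmc4) and 0.18 (Psmc2).

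Of the 11 non-ATPase subunits of the regulatory particle 9 were above 0, with a median of 0.17. Psmd3, a scaffold subunit, was at 3.86, 3.63, 3.84 and 3.53 in CKO 1 to 4, against 3.21, 3.40, 3.22 and 3.55 in WT 1 to 4, and only WT 4 reached into the CKO range (difference 0.37, SE 0.16; adjusted p = 0.724). Psmd4, a ubiquitin receptor, differed by 0.38 (SE 0.20). Psmd13, which sits in the lid, differed by 0.35, with WT 4 at -0.92 above every CKO array and the other WT mice at -1.55 to -1.53.

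Psmd14, the enzyme that strips ubiquitin from the substrate, had a lower mean in CKO. It was at -1.40, -2.05, -1.62 and -0.56 in CKO 1 to 4, against -0.84, -1.27, -1.28 and -0.74 in WT 1 to 4. This was the lowest difference of any member, -0.38, with an SE of 0.31 and overlapping groups.

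Among the assembly chaperones, which help to build the core (Psmg genes) or the base of the regulatory particle (Psmd5, Psmd9 and Psmd10), 5 of 7 were above 0, with a median of 0.13. Psmd9 was at -0.10, -0.15, -0.35 and -0.43 in CKO 1 to 4, against -0.10, 0.24, 0.04 and 0.02 in WT 1 to 4. CKO 1 lay only 0.0009 under WT 1 (difference -0.31, SE 0.16; adjusted p = 0.724). The second Psmd9 probe gave 0.18, on the other side of 0. Psmg1, Psmg2 and Psmg3 differed by 0.24, 0.33 and 0.23, each with overlap.

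Of the remaining activators and inhibitor, Psme4 (the nuclear activator PA200) differed by 0.17 and Psmf1 (the inhibitor PI31) by 0.11. Psme3, the nuclear 11S activator, had a flagged spot on WT 2 and was not tested. It was at 3.97, 4.13, 4.08 and 4.20 in CKO 1 to 4, against 4.50, 4.37 and 4.11 in WT 1, 3 and 4. Of the 11 genes with a second probe, 3 had probes on opposite sides of 0, namely Psmd9, Psmd10 and Psmd12.

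How the members varied together over the arrays was read from each gene's level minus its own mean over the 8 arrays, with the median taken over each class on each array. For the 7 core beta genes this was 0.07, 0.03, 0.14 and 0.27 in CKO 1 to 4, against -0.29, -0.09, -0.21 and 0.09 in WT 1 to 4. For the 11 non-ATPase genes it was 0.13, -0.02, 0.25 and 0.08 in CKO, against -0.25, -0.13, -0.21 and 0.26 in WT. WT 4 thus stood among or above the CKO mice for the constitutive classes. It was the highest WT mouse for 38 of the 45 members and above the CKO mean for 29. For the 4 immunoproteasome genes the median was 0.15, 0.19, 0.12 and 0.20 in CKO, against -0.01, -0.27, -0.19 and -0.37 in WT. Here the groups did not overlap, but a median of 4 genes is only the mean of the middle pair. Psmb8, which passed the filter with 3 CKO arrays and 1 WT array, is among the 4 genes. The separation of this median is therefore not read as a result for the class. WT 4 was the lowest through Psmb8 and Psmb9, while for Psmb10 and Psme1 it was the highest WT mouse, as for most constitutive members.

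**Figure D3:**
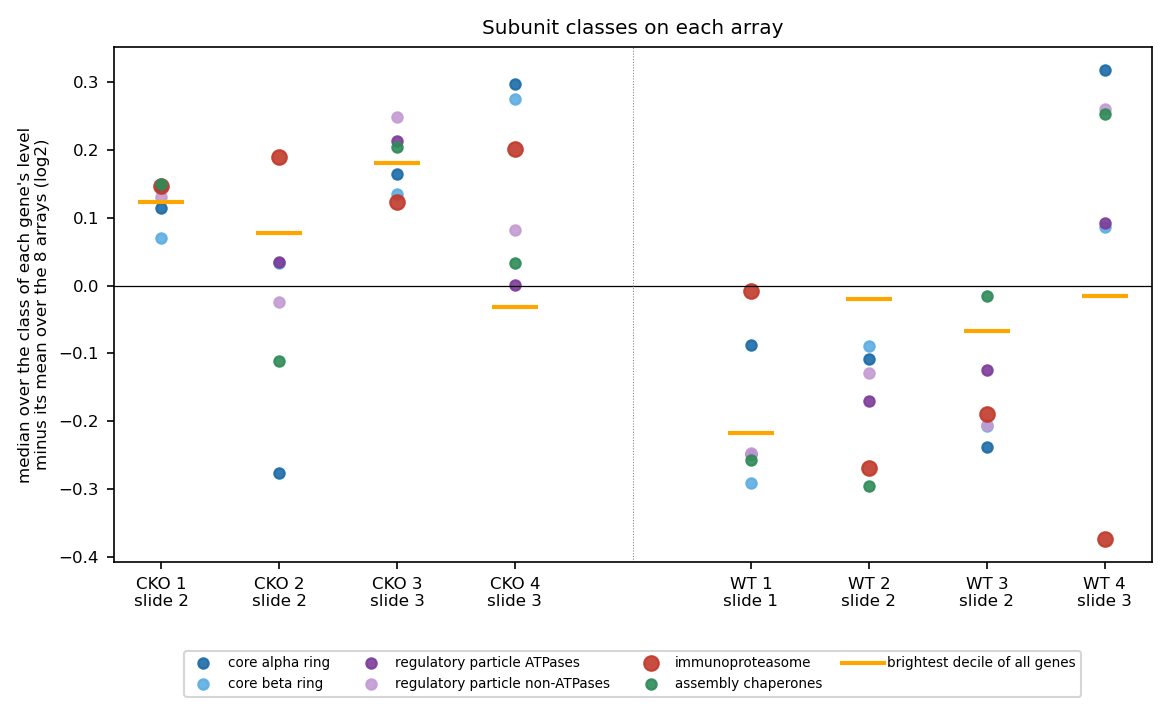
Median over each subunit class of a gene's level minus its mean over the 8 arrays (log2, vertical axis) for each array, with the slide under its name and the brightest decile of all genes as a bar. The constitutive classes and chaperones of WT 4, on slide 3, lie at 0.09 to 0.32. For the beta ring and the ATPases this is among the CKO arrays. For the alpha ring, the non-ATPases and the chaperones it is above them all. The immunoproteasome median of WT 4 is at -0.37 through Psmb8 and Psmb9, its Psmb10 and Psme1 levels being the highest of the WT mice.

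Within slide 3 (2 CKO mice and WT 4) the class medians were -0.10 for the alpha ring, -0.02 for the ATPases, -0.08 for the non-ATPases and -0.18 for the chaperones, and 19 of 45 members were above 0. Within slide 2 (2 CKO and 2 WT mice) 33 of 45 were above 0, with a median of 0.18. Leaving out WT 4 gave 37 above 0, a median of 0.27 and 7 members higher at an unadjusted p under 0.05. Calls rose over all genes too in that fit, to 5.27% higher and 8.07% lower. The beta ring median within slide 3 was 0.013. The immunoproteasome median, with Psmb8 included, was 0.36 within slide 2 and 0.45 within slide 3. From slide 2 to slide 3, Psmb10 went from 0.41 to 0.28 and Psme1 from 0.30 to 0.13. Psmb9 went from -0.08 to 0.62, with WT 4, its low array, as the only WT mouse. The slide 3 median is thus the mean of Psmb10 and Psmb9. Slide and array effects on these values were not separately tested, since slide 3 has a single WT mouse.

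The members are also among the brighter genes, and with the 75th percentile scaling bright genes as a whole were higher in CKO. Of the 45 members 20 fell in the brightest decile of genes by mean signal, whose median difference over all genes was 0.16, while that of the dimmest decile was -0.52. With quantile normalization, which gives every array the same distribution of signal, these medians were 0.02 for the brightest decile and -0.08 for the dimmest. Against the median of the decile it belonged to, a member stood higher in 32 of 45 cases, by a median of 0.09. By class, this excess was 0.02 for the alpha ring, 0.06 for the beta ring, 0.10 for the ATPases, 0.06 for the non-ATPases and 0.27 for the immunoproteasome genes. With the slide as a block it was -0.01, 0.01, 0.06, -0.002 and 0.22. The immunoproteasome value is a median over 4 genes that differed widely: without the block the excess was 0.27 for Psmb10, 0.27 for Psme1 and 3.24e-05 for Psmb9, and with it 0.25, 0.19 and 0.20. The excess of Psmb8 is not read by itself, since Psmb8 passed the filter with 3 CKO arrays and 1 WT array. It is still counted among the 32 members and in the class medians of 0.27 and 0.22. Those medians are therefore not on a par with those of the other classes.

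**Figure D4:**
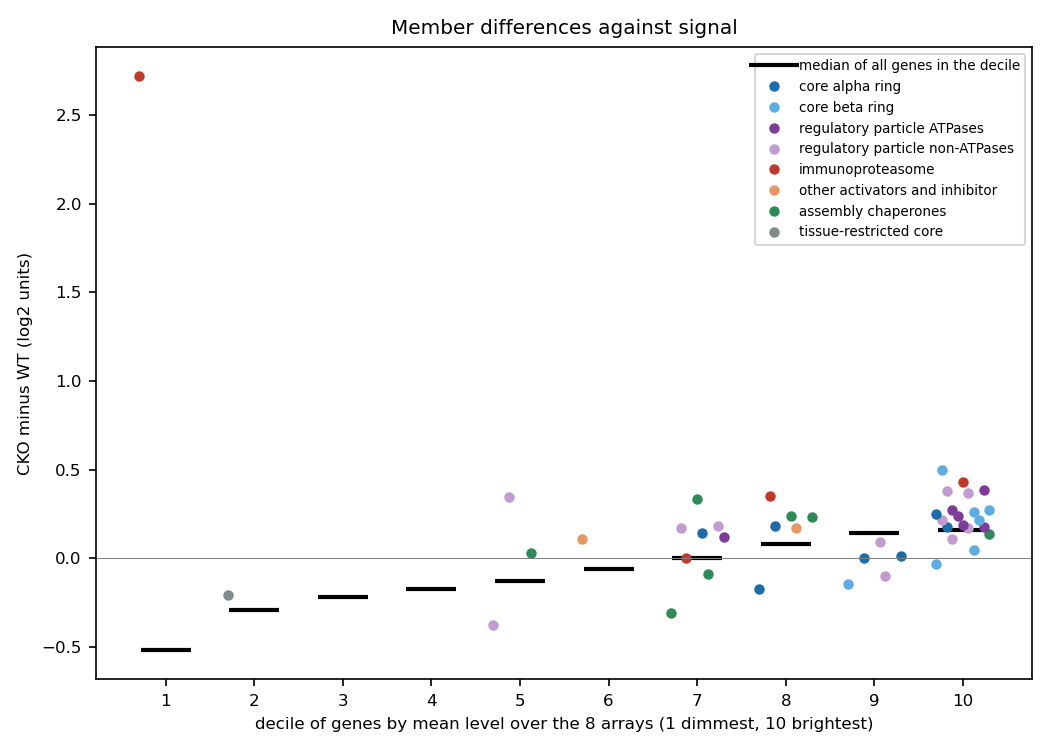
Difference between CKO and WT (log2 units, vertical axis) of the 45 tested members against the decile of all genes they fall in by mean level (horizontal axis; points spread sideways for clarity), with the median of all genes in each decile as a bar. The bars climb with signal to 0.16 in the brightest decile, where 20 members lie around them. The bars are those of the 75th percentile scaling, which shifts all genes of an array alike. With quantile normalization, which gives every array the same distribution of signal, the brightest decile is at 0.02.

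**Figure D5:**
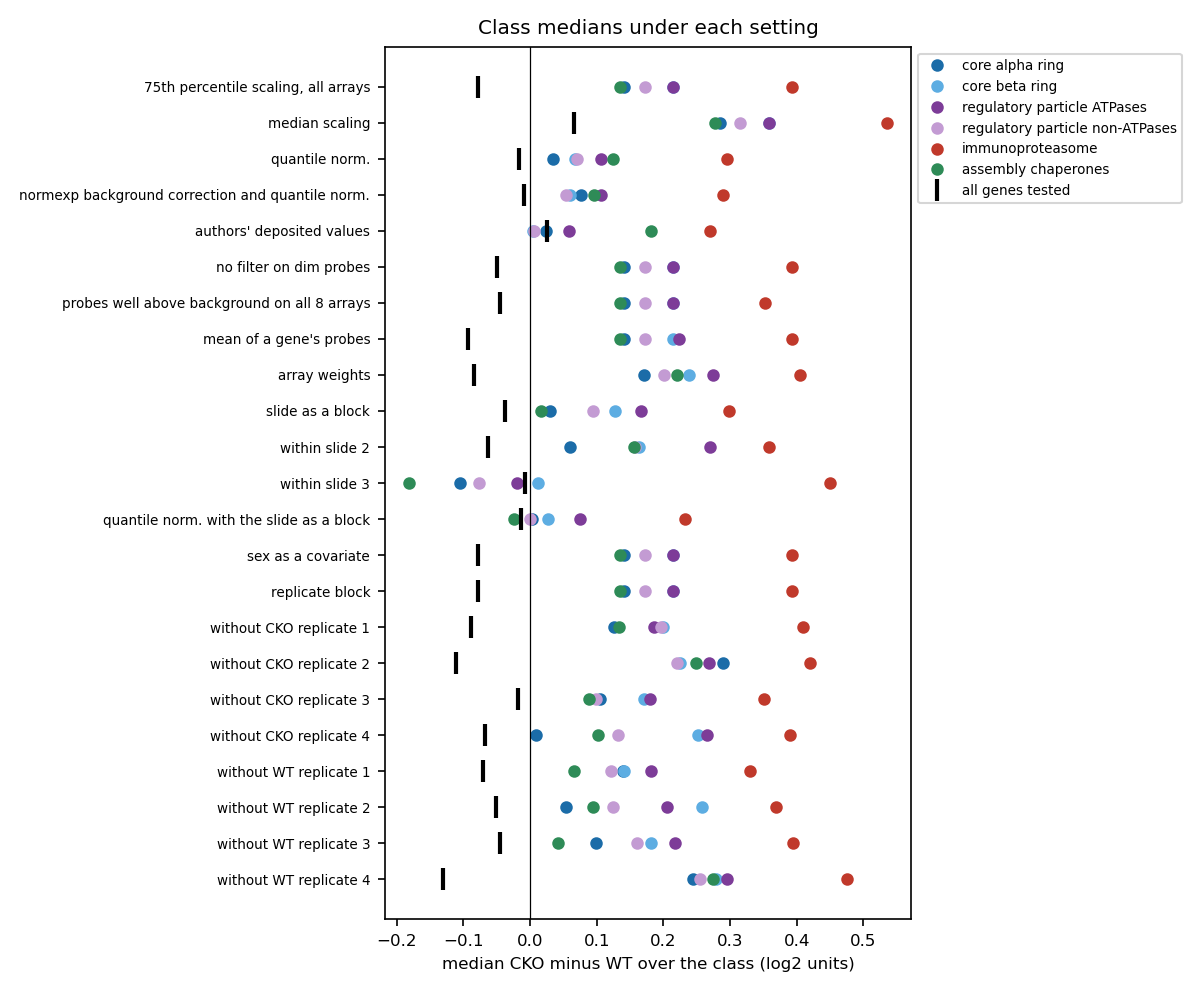
Median difference between CKO and WT (log2 units, horizontal axis) of 6 subunit classes and of all genes tested under the main setting (top) and each alternative. Every immunoproteasome median lies to the right of 0, from 0.23 to 0.54, and within slide 3 the alpha, ATPase, non-ATPase and chaperone medians lie to the left. The immunoproteasome medians include Psmb8, which passed the filter mainly through CKO arrays. The exceptions are those with the authors' values and with probes well above background on all 8 arrays.

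Genes that work with the proteasome, from a list of 30 that holds ubiquitin genes, shuttle factors, associated enzymes and the regulators of subunit transcription, were mostly above 0 as well. Of the 27 tested 22 were above 0, against 41.5% of all genes, with a median of 0.21. At a limma p under 0.05, 1 was higher, against 2.5% of all genes, and 0 were lower, against 2.81%. Nfe2l1, the transcription factor that raises all subunit genes when the proteasome is inhibited, differed by 0.04 (SE 0.20), and Pomp, the core's maturation factor, by 0.35 (SE 0.23). Ubqln4, a shuttle factor that carries ubiquitinated proteins to the proteasome, differed by -0.61 (SE 0.28).

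Genes of the interferon pathway, which induces the immunoproteasome, and of antigen processing had differences on both sides of 0. Of 18 tested 9 were above 0, against 41.5% of all genes, with a median of -0.02. Irf1, a driver of immunoproteasome genes, differed by -0.39 (SE 0.22), and Nlrc5, which activates the same genes, by -0.46 (SE 0.29). On the other side of 0, Irf9 had the highest difference of the list, 0.42 (SE 0.26), and Jak1 differed by 0.27 (SE 0.17). Tap1 and Tap2, the peptide transporter genes next to Psmb8 and Psmb9 on chromosome 17, differed by 0.07 (SE 0.23) and -0.21 (SE 0.15). Ifng itself differed by -1.81 (SE 0.64; adjusted p = 0.724), a dim signal that was well above background in 1 CKO mouse and all 4 WT mice.

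Markers of other cell types were read from the same arrays. Of 14 microglial markers tested, from a list of 15, 12 were above 0, against 41.5% of all genes, with a median of 0.24. At a limma p under 0.05, 4 were higher, among them Laptm5, Tyrobp and Ctss, against 2.5% of all genes. At that p 0 were lower, against 2.81%. The summed level of the 14 markers, on a linear scale relative to each array's 75th percentile, was 77.3 to 107.2 in CKO and 66.4 to 88.8 in WT. This sum is mostly that of Itgam and Csf1r and says little of the other markers. On the log2 scale Itgam averaged 6.08 in CKO and 5.83 in WT, and Csf1r 4.05 and 4.02. Tmem119 and P2ry12, the markers of the list most specific to microglia, differed by 0.004 and -0.10. Each microglial marker tested was well above background on at least 7 arrays, so none of them was at 0. The medians were 0.32 for 7 astrocyte markers, 0.18 for 8 of oligodendrocytes, -0.06 for 10 of endothelium, 0.15 for 5 of interneurons and 0.20 for 8 of excitatory neurons, all 8 of which were above 0. At a limma p under 0.05, 2 astrocyte markers, 2 of oligodendrocytes, 1 of interneurons and 0 of excitatory neurons were higher, against 2.5% of all genes. In endothelium 0 were higher and 1 was lower at that p, against 2.81% of all genes lower. Higher calls were thus not limited to microglial markers. The part of other cells' RNA in the values of Psmb8, Psmb10 and Psme1 was not tested.

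Psmb10 lies on chromosome 8 with Ctcf, their probes 253 kb apart in mm9, and so does Psmd7, whose probe is 1898 kb from that of Ctcf and which differed by 0.21. Between the probes of Ctcf and Psmb10 there were 14 other genes tested. Of these 7 were above 0, against 41.5% of all genes, with a median of 0.01 and a range of -0.96 to 0.34. None was at a limma p under 0.05, against 5.31% of all genes, and for none did the groups separate, against 3.32%. The nearest tested neighbours of Psmb10, Ctrl and Lcat, differed by -0.13 (SE 0.26) and -0.27 (SE 0.23).

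Promoters were read from RefSeq (GRCm38.p6), from 250 bases before to 50 bases after each start, for the 40 of 48 genes, Psme2 included, that the table holds. The gamma interferon site TTCNNNGAA was found in 3 of 40, or 7.5%, against 9.55% of all genes in the table. The core of the interferon-stimulated element, a pair of GAAA with 2 bases of any kind between, was found in 5, or 12.5%, against 3.99%. The antioxidant element TGACNNNGC was found in 6, or 15%, against 14%, and CCCTC, the core of the CTCF motif, in 25, or 62.5%, against 67.7%. Both strands were searched, and matches to different motifs could overlap. Of the 5 immunoproteasome genes Psmb8 alone held the gamma interferon site and Psme1 alone the interferon-stimulated core, while Psmb9, Psmb10 and Psme2 had neither in this window. Both are printed with the match in capitals, for Psmb8 the 150 bases before the start (chr17:34198045-34198194, plus strand) and for Psme1 the 100 bases before and 20 after it (chr14:55578394-55578513, plus strand).
Psmb8: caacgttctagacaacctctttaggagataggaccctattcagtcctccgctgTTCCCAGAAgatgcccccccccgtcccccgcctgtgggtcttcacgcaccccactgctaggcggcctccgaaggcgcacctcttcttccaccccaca
Psme1: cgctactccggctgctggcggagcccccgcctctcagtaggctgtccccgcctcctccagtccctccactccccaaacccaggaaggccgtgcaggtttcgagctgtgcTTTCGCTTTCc
The match in Psmb8 spans bases -97 to -89 and that in Psme1 bases 10 to 19, where base 1 is the first transcribed. The CTCF core was found in 4 of the 5 immunoproteasome genes, in Psmb10 but not in Psmb8.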

How the data were processed

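Ribosome-bound RNA of 8 hippocampi was amplified and labelled with Cy5, per the labels' protocols. The deposited scanner files hold spot intensity of 1 colour from Agilent Feature Extraction 11.5, per the submitters' processing notes. Their background flags are those the authors deposited. Coordinates are mm9, per the file headers. The authors also deposited a table of intensity per spot on a linear scale, normalized in a way not given in the sources used here; it was used as an alternative.

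Spots of a probe were averaged without flagged spots, as log2 processed signal minus the array's 75th percentile. The filter asked for a signal well above background on 4 or more of the 8 arrays and no missing value, which left 44314 probes, and each gene took its brightest probe, giving 29528 genes. Genes were named through RefSeq accessions where these matched (28331 probes).

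CKO was compared with WT with limma 3.58.1 in R 4.3.3 (two-sided, Benjamini-Hochberg over all genes, threshold 0.05), and the fit was tested on simulated data. Mice are labelled as biological replicates. The number of arrays, 4 a group, limits the precision. The members and gene lists were chosen with earlier results of these data known. The text names the immunoproteasome genes and counterparts, Ctcf, the 5 members of smallest p in each direction, those whose groups did not overlap, Psma8 and Psmb11, and of the list of genes that work with the proteasome those at a p under 0.05 or, if none, the 2 of smallest p; other genes are named as examples and were chosen after their values were seen. The values of a few genes of these lists are not reported here. Alternatives were other scalings, filters and probe rules, array weights, slide, sex and replicate terms, and each array left out.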

Additional observations from a re-analysis of the deposited data

Results flagged for a closer look

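In 96 groups of 4 arrays (45 members and 3 pairs of subunits, in CKO and in WT), 8 had an array that stood far from the other 3, where chance flags about 1 group in 20. Of these, 5 were WT 4, on slide 3. It was the high array for Psma1, at 1.75 against 0.98 to 1.08 in the other WT mice. It was also high for Psma6, at 2.35 against 2.14 to 2.17, and for Psmc2, at 3.81 against 3.51 to 3.53. For Psmd13 it stood at -0.92 against -1.55 to -1.53. For Psmb9 it was the low array, at -0.51 against 0.40 to 0.56.

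CKO 2 was low for Psma3, at 2.67 against 3.09 to 3.16 in the other CKO mice, and for Psmd5, at 2.42 against 2.87 to 2.91. CKO 1 was high for Psmc1, at 4.30 against 3.87 to 3.92. What sets these arrays apart was not tested.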

How the results depend on the processing

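No member passed an adjusted p of 0.05 under any of the 22 alternatives, and the class medians, pairs and named members not listed below kept their direction in all that gave a value. Psmb8, and its difference from Psmb5, had none with the authors' deposited values or with the strictest filter on dim probes (all 8 arrays). The count of members higher at an unadjusted p under 0.05, 5 as reported, was 2 with quantile normalization (Psmb8 and Psmb10), 2 with the authors' deposited values (Psme1 and Psmd13), 3 with probes well above background on all 8 arrays, 9 with array weights, 2 within slide 2, 1 within slide 3, 3 with the slide as a block and 1 with quantile normalization and the slide as a block. The share of all genes higher at that p, 2.5% as reported, was 2.52%, 3.62%, 2.85%, 6.8%, 1.22%, 1.49%, 2.4% and 3.12% in the same settings, so array weights raised calls over all genes as well. The count of lower members, 0 as reported, was 1 with the slide as a block and 1 when quantile normalization was added to it. The share of all genes lower at that p was 2.81% as reported, and 3.77% and 3.37% in these settings. Leaving out single arrays gave 1 (without WT 1) to 7 (without WT 4) higher and 0 to 1 lower (without CKO 4). Over all genes 1.31% were higher without WT 1 and 5.27% without WT 4, and 3.15% were lower without CKO 4. Same-numbered mice did not deviate together (correlations of -0.42 to 0.39). Since CKO 1 and WT 1, and CKO 3 and WT 3, lay on different slides, this cannot show whether the numbers pair the mice. With the replicate block 1 member was higher (Psmb8), against 1.29% of all genes.

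Scaling moved all genes together: their median was -0.08 as reported, 0.07 with median scaling and -0.02 with quantile normalization, and 41.5%, 57.6% and 47.8% of genes were above 0, against 37, 40 and 31 of 45 members. With median scaling the medians were 0.36 for the beta ring, 0.36 for the ATPases and 0.54 for the immunoproteasome. The beta ring median was 0.067 with quantile normalization, 0.060 with normexp, 0.0043 with the authors' values and 0.028 with quantile normalization and the slide as a block. The ATPase median was 0.059 with the authors' values and 0.075 with quantile normalization and the slide as a block. That of the immunoproteasome was 0.27 and 0.23 in the same settings. Psmb8 minus Psmb5 was 0.64 with normexp, whose offset of 50 by itself shrinks dim differences.

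Within slide 3 the medians of the alpha ring (-0.10), ATPases (-0.019), non-ATPases (-0.076) and chaperones (-0.18) turned below 0, that of the beta ring was 0.013, and Psmb9 minus Psmb6 turned to 0.24. With quantile normalization and the slide as a block the median of the non-ATPases was -0.0004 and that of the chaperones -0.02. Among members near 0, Psmb9 was -0.035 with quantile normalization, -0.049 with normexp, -0.034 with the authors' values, -0.13 with array weights and -0.076 within slide 2, and -0.25 to 0.11 with single arrays left out. Psmb7 was 0.11 with median scaling, 0.10 with array weights and 0.027 within slide 2, and -0.13 to 0.086 with single arrays left out. Psmb11, alone in its class, was 0.046 with quantile normalization, 0.036 with normexp, 0.12 with the authors' values and 0.038 with quantile normalization and the slide as a block, and -0.52 to 0.00079 with single arrays left out. Without the filter on dim probes, which adds Psma8, that class had a median of 0.04. With array weights Psma4 was 0.070 and Psmb1 0.042. The causes of these changes were not tested. Psmb8 and Psma8, at or near background, are the members whose values depth of signal limits most.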
